A study of Homo sapiens with 54 samples.

Results

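The genes described here are 52 genes of mitosis and chromosome segregation, followed across STAT6 genotypes and time. They were chosen by symbol, with earlier results of these data known. All 52 were found among the 31835 gene identifiers of the count table, each by its Ensembl identifier, and all 52 passed the filter on low counts in every comparison. Together they held 0.619% of all counted molecules. They were grouped by role into cyclins, CDK1 and CDC25 phosphatases, the kinases AURKA and PLK1 with TPX2, the chromosomal passenger complex, the spindle checkpoint, partners and targets of the anaphase-promoting complex, centromere and kinetochore proteins, spindle motors and microtubule proteins, proteins of the midzone and cytokinesis, and chromosome structure. ARL6IP1, a membrane-shaping protein of the endoplasmic reticulum, stands in a group of its own, since its known role is not mitotic.

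Cells enter mitosis when CDK1 bound to a cyclin is freed of its inhibitory phosphates by CDC25 phosphatases. Aurora and Polo-like kinases then build the spindle, kinetochores tie chromosomes to microtubules, and the spindle checkpoint holds back the anaphase-promoting complex until every chromosome is attached. CDC20 activates that ubiquitin ligase, which marks cyclins and securin (PTTG1) for destruction, and kinesins and their partners at the midzone then drive cytokinesis. Most of these genes are transcribed in G2 and mitosis, so their summed level in a bulk sample is read as a sign of the share of dividing cells. In bulk RNA, a different share of dividing cells and a different amount of mRNA per dividing cell cannot be told apart.

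The cells were OCI-Ly1, an established human B cell lymphoma line with its own variant in the DNA-binding domain of STAT6. They were stably transduced with a CMV-driven construct for Flag-tagged STAT6, either wild-type (STAT6 WT) or with D419G, D419N, or N421K in the DNA-binding domain (together STAT6 MUT). All groups received IL-4 at 10 ng/ml for 20 min, were washed, and gave RNA after 2, 4, or 8 h. At each time there were 9 STAT6 WT libraries and 3 of each mutant line, 54 in all, labelled as biological replicates, and no group went without IL-4. Replicate numbers ran from 1 to 9 in STAT6 WT and from 1 to 3 in each mutant line. Leaving out number 1, 2, or 3 thus takes libraries from every line. Leaving out a number from 4 to 9 takes STAT6 WT libraries only. How many independent transductions were made per construct is not stated in the sources used here, and genotype and transduced population cannot be told apart. If replicates of a line came from 1 transduction, the p-values measure the spread between cultures only. Whether libraries of the same line and number at 2, 4, and 8 h came from 1 culture is not stated either. The main tests treat all libraries as independent.

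Libraries held 161518 to 2978715 molecules on genes, with a median of 885258, and 8 libraries fell below 0.5 of that median. All 8 B cell markers were detected in all 54 libraries. Of the 3 T cell markers found, CD3G was at 0 in 52 libraries and CD8A in 35, whereas TRAC was detected in all 54, at 15.4 CPM to 49.6 CPM. The monocyte genes CD14 and LYZ were at 0 in 45 and 50 libraries. The 2, 4, and 8 h libraries lay in different plate rows, so time and plate row cannot be told apart. Within each time the genotypes shared the same rows but not the same columns. At 2 h, wells A10, A11, and A12 all held STAT6 WT. The N421K libraries lay in wells A3, A5, and B5 at 2 h and C1, D2, and D6 at 4 h. At 8 h they lay in E5, E12, and F6. Plate column was not in the models. Libraries also differed in how genes of low and high GC content were represented. A GC measure was taken per library as the median log2 deviation of the 20% of genes poorest in GC minus that of the 20% richest in GC, with the 52 genes left out. It was −0.04 ± 0.14 (SD, n = 27) in STAT6 WT, 0.02 ± 0.13 in D419G, 0.003 ± 0.165 in D419N, and 0.13 ± 0.09 in N421K (SD, n = 9 each). STAT6 WT replicates 6 and 3 at 2 h and replicate 3 at 4 h had the lowest measures, at −0.35, −0.28, and −0.32. They lay in wells A12, A11, and C12. The measure was 0.13 in well A1 and −0.35 in A12, and 0.27 in C1 and −0.32 in C12. Wells C10 and C11, with D419N and D419G, stood at −0.20 each. At 8 h it was −0.01 in E1 and −0.05 in E12.

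Each level below is in CPM, a gene's molecule count after TMM scaling of the libraries to equal size. As each molecule is counted once at its 3′ end, a long transcript gains no extra counts, and levels of different genes may be set side by side. Mean levels over the 54 libraries ran from 16.9 CPM to 883 CPM with a median of 73.9 CPM. The highest were HMGB2, a DNA-bending protein, at 883 ± 66.7 CPM, SMC4, the core ATPase of condensin, at 661 ± 92.9 CPM, and TOP2A, which untangles sister DNA, at 369 ± 47.9 CPM (SD, n = 54 each). Above 100 CPM lay 17 of the 52 genes and below 50 CPM lay 15. CDC25C and KIF18A were lowest, both at 16.9 CPM with SDs of 5.7 and 5.2, and did not differ beyond their spread. The median library held at least 50 molecules of 36 of the genes, and of 0 genes under 10, so single libraries of the lower genes carry a large counting error.

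The first comparison asks whether mutant STAT6 moves mitotic genes at all, with time in the model. Over all times, 7 of 52 genes (13.5%) were called higher in STAT6 MUT and 0 lower, beside 13.4% of all 9261 genes tested that were called in either direction, 6.74% higher and 6.62% lower. Of the 52 estimates, 44 were positive, with a median log2 fold change of 0.06, beside a median of 0.001 and 50.3% positive over all genes. With the library GC measure as a covariate, an alternative chosen after seeing the data, 27 of 52 were positive with a median of 0.01, and without the N421K line the median was 0.02. The called genes were CENPV, KIF11, KIF14, SMC4, UBE2C, AURKA, and CDK1. Apart from CENPV, whose fold change was 1.39, their fold changes lay between 1.11 for CDK1 and 1.21 for KIF11. UBE2C, the ubiquitin-conjugating enzyme of the anaphase-promoting complex, held 144.5 ± 21.4 CPM in STAT6 WT and 168.0 ± 28.6 CPM in STAT6 MUT (SD, n = 27 each), with a log2 fold change of 0.17 ± 0.05 (SE, adjusted p = 0.0111 by edgeR's quasi-likelihood test). KIF11 and SMC4 stood at 0.27 ± 0.07 and 0.18 ± 0.05 (SE), with adjusted p of 0.00288 and 0.00374 by edgeR's quasi-likelihood test. Of the genes fixed to stand for their roles, CDK1 and AURKA stood at 0.16 ± 0.05 and 0.17 ± 0.06 (SE), with adjusted p of 0.0216 and 0.0286 by edgeR's quasi-likelihood test. TOP2A, CCNB1, PLK1, CDC20, MAD2L1, and BIRC5 lay between −0.04 for CDC20 and 0.08 for PLK1, with adjusted p from 0.36 to 0.879 by edgeR's quasi-likelihood test. The summed level of the 52 genes was 6115 ± 327 CPM in STAT6 WT and 6459 ± 317 CPM in STAT6 MUT (SD, n = 27 each), a shift of about the SD of either group. Left without the N421K line, the comparison called 2 genes, and without replicate 2 or replicate 3 it called 3 or 4. Of the 7 genes, 1, CENPV, was called in all 9 fits that each left out 1 replicate number.

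CENPV was the member with the largest and steadiest genotype difference. CENPV is a centromere protein known to help organize pericentric heterochromatin and to place the chromosomal passenger complex. The gene (ENSG00000166582) lies on the minus strand at chr17:16342534-16353656 (GRCh38). Its level in STAT6 WT ranged from 53.95 CPM to 105.6 CPM with a median of 63.5 CPM. The 9 D419G libraries held 100.1, 73.2, and 78.4 CPM at 2 h, 112.8, 79.5, and 96.0 CPM at 4 h, and 85.3, 81.0, and 89.5 CPM at 8 h. The 9 D419N libraries held 90.5, 95.3, and 99.4 CPM at 2 h, 84.6, 95.3, and 84.2 CPM at 4 h, and 93.7, 113.6, and 65.4 CPM at 8 h. In all, 27 of 27 mutant libraries lay above the STAT6 WT median of CENPV, although the groups overlapped and only 3 lay above every STAT6 WT library. The N421K libraries held 97.0, 82.8, and 90.3 CPM of CENPV at 2 h, 81.0, 109.0, and 95.2 CPM at 4 h, and 100.1, 101.1, and 72.8 CPM at 8 h. The log2 fold change of CENPV across times was 0.47 ± 0.05 (SE, adjusted p = 1.5e-11 by edgeR's quasi-likelihood test, adjusted after Benjamini-Hochberg over all genes tested).

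**Figure D1:**
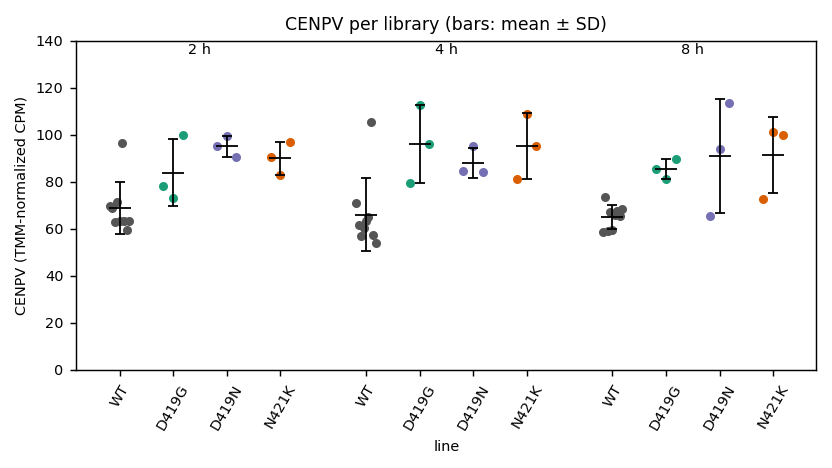
CENPV level in each of the 54 libraries (TMM-normalized CPM, linear axis from 0) by line and time after the IL-4 pulse, with points for libraries and bars for mean ± SD (n = 9 for WT, n = 3 for each mutant line). The WT points sit between 53.95 CPM and 73.4 CPM except for 2 at 96.5 CPM and 105.6 CPM, and the mutant points lie between 65.4 CPM and 113.6 CPM.

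The 2 high STAT6 WT values of CENPV, 96.5 CPM in replicate 6 at 2 h and 105.6 CPM in replicate 3 at 4 h, came from the 2 libraries with the lowest GC measure. CENPV transcripts have 52.8% GC (mean over the GENCODE v44 transcripts of a gene), above the median of 48.3% over the genes used for the measure. With the GC measure as a covariate, the log2 fold change of CENPV was 0.53 and its adjusted p 3.7e-13 by edgeR's quasi-likelihood test. By line, the log2 fold change of CENPV was 0.46 in D419G, 0.50 in D419N, and 0.47 in N421K, with adjusted p of 1.6e-05, 2.9e-06, and 1.6e-07 by edgeR's quasi-likelihood test. The 3 estimates share the same STAT6 WT libraries. Without replicate 1, the CENPV estimate in D419G was 0.33 and was no longer called. An antisense neighbour, PIGL, overlaps the 3′ end of CENPV, and the use of strand in counting is not given. PIGL had 592 molecules in all against 4137 of CENPV, and its log2 fold change was −0.14 with an adjusted p of 0.51 by edgeR's quasi-likelihood test.

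At single times, 4 of 52 genes (7.69%) were called at 2 h, all higher, beside 8.59% of all genes tested, 3.92% higher and 4.67% lower. At 4 h, 1 of 52 was called, beside 3.97% of all genes, 1.96% higher and 2.01% lower. At 8 h, 1 of 52 was called, beside 1.44% of all genes, 0.852% higher and 0.591% lower. Without replicate 1, 2 were called at 8 h, CENPV and UBE2C. CENPV was called at all 3 times, with log2 fold changes of 0.44, 0.51, and 0.47. At 2 h the other called genes were SMC4, KIF11, the kinesin that pushes the spindle poles apart, and KIF20B, a kinesin of cytokinesis. Without replicate 1, 2 genes were called at 2 h. KIF11 was not called without replicate 1, 2, or 3, nor KIF20B without replicate 1 or 3. SMC4 at 2 h ranged from 361 CPM to 687 CPM in STAT6 WT with a median of 589 CPM, and from 669 CPM to 848 CPM in STAT6 MUT with a median of 717 CPM, so that 7 of 9 mutant libraries lay above every STAT6 WT library. KIF11 at 2 h ranged from 26.4 CPM to 41.2 CPM in STAT6 WT and from 38.6 CPM to 61.0 CPM in STAT6 MUT, and there too 7 of 9 mutant libraries lay above every STAT6 WT one. KIF20B at 2 h ranged from 31.1 CPM to 71.7 CPM in STAT6 WT and from 64.7 CPM to 81.8 CPM in STAT6 MUT, with 6 of 9 mutant libraries above every STAT6 WT one. By 8 h the medians of SMC4 were 650 CPM in STAT6 WT and 637 CPM in STAT6 MUT.

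The test of whether the genotype difference changed with time called 0 of 52 genes by edgeR's quasi-likelihood test, beside 0.957% of all genes. At an unadjusted p under 0.05 it held 2 genes, SMC4 and HMMR, and DESeq2 and limma-voom also called 0. For SMC4, the adjusted p was 0.19 by edgeR's quasi-likelihood test. The GC measure was on average higher in the mutant libraries of 2 h. It stood at −0.07 ± 0.17 in STAT6 WT and 0.14 ± 0.07 in STAT6 MUT (SD, n = 9 each). Genotype and GC measure thus cannot be fully separated when both are in the 2 h model. Whether calls lost in that model reflect base composition or genotype was not tested. Of the 10 mitochondrially encoded genes, 4 were called higher in STAT6 MUT at 2 h (40%), beside 3.92% of all genes. All 10 were positive with a median of 0.16, and their part in the calls of the 52 genes was not tested. SMC4, KIF11, and KIF20B transcripts have 38.7%, 38.9%, and 35.4% GC. With the GC measure as a covariate, 1 gene was called at 2 h, CENPV, and SMC4 stood at a log2 fold change of 0.09 with an adjusted p of 0.57 by edgeR's quasi-likelihood test. Without the 3 STAT6 WT libraries lowest in the measure, 2 genes were called at 2 h, CENPV and SMC4.

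Between lines, N421K had the most genes called against STAT6 WT. The lines also differed in depth. Median totals were 1069603 molecules in N421K, 836535 in D419G, 812912 in D419N, and 948930 in STAT6 WT. The part of depth in the counts of called genes was not tested. D419G had 1 of 52 genes called (1.92%), CENPV, beside 5.38% of all genes, 3.16% higher and 2.22% lower. Without replicate 1 it had 0 called by edgeR's quasi-likelihood test, with CENPV at an adjusted p of 0.0696, and without replicate 2 it had 2. D419N too had CENPV alone called, 1 of 52, beside 2.75% of all genes, 1.49% higher and 1.26% lower. The median log2 fold change was −0.003 in D419G, with 26 of 52 positive, and 0.03 in D419N, with 36 positive. N421K had 12 of 52 genes called higher (23.1%) and 0 lower, beside 13.7% of all genes called in either direction, 6.76% higher and 6.92% lower. Its median was 0.12 with 47 of 52 positive, beside a median of 0.002 and 50.4% positive over all genes. The summed level of the 52 genes was 6775 ± 246 CPM in N421K, 6247 ± 158 CPM in D419G, and 6354 ± 256 CPM in D419N (SD, n = 9 each), against 6115 ± 327 CPM in STAT6 WT (SD, n = 27).

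**Figure D2:**
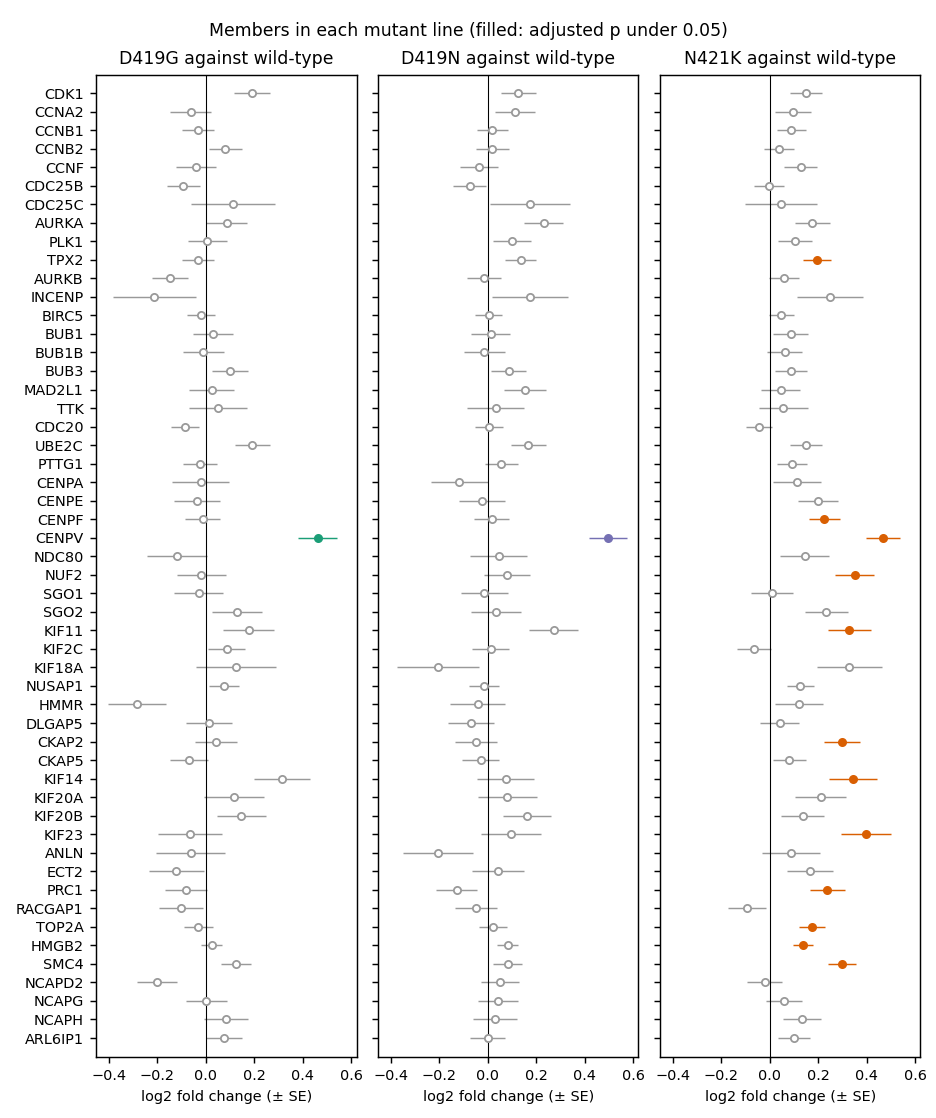
Log2 fold change ± SE of each of the 52 genes in D419G, D419N, and N421K against the same STAT6 WT libraries, with genes in order of role and filled points for an adjusted p under 0.05. CENPV is filled in all 3 panels at 0.46 to 0.50, and the N421K panel has 12 filled points, all to the right of 0.

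The genes called in N421K spanned several roles. Over all genes, 13.7% were called in N421K, 6.76% higher and 6.92% lower, and these shares stand beside each role here. Of the 8 centromere and kinetochore genes, 3 were called, CENPV, CENPF, which joins the outer kinetochore in late G2, and NUF2, a subunit of the microtubule-binding NDC80 complex. Of 8 genes of the midzone and cytokinesis, 3 were called, namely KIF23, the motor of centralspindlin, KIF14, a kinesin of the midbody, and PRC1, which bundles midzone microtubules. TOP2A, HMGB2, and SMC4 were called among 6 genes of chromosome structure, and KIF11 and the spindle protein CKAP2 among 8 spindle genes. TPX2, the activator of AURKA, was the last. None of the 7 cyclin, CDK1, and CDC25 genes, of the 3 passenger complex genes, of the 5 checkpoint genes, or of the 3 partners of the anaphase-promoting complex was called in N421K by edgeR's quasi-likelihood test, and at an unadjusted p under 0.05 these roles held 1, 0, 0, and 1 genes.

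SMC4 ranged from 361 CPM to 750 CPM in STAT6 WT with a median of 640 CPM and from 611 CPM to 848 CPM in N421K with a median of 777 CPM, and 7 of 9 N421K libraries lay above every STAT6 WT library. Its log2 fold change in N421K was 0.30 ± 0.06 (SE, adjusted p = 4.4e-05 by edgeR's quasi-likelihood test). NUF2 ranged from 23.8 CPM to 54.9 CPM in STAT6 WT and from 37.6 CPM to 70.4 CPM in N421K, with 8 of 9 N421K libraries above the STAT6 WT median. The log2 fold change of NUF2 was 0.35 ± 0.08 (SE, adjusted p = 0.00084 by edgeR's quasi-likelihood test). CKAP2 ranged from 51.1 CPM to 141.7 CPM in STAT6 WT and from 102.2 CPM to 133.7 CPM in N421K, and all 9 N421K libraries lay above the STAT6 WT median. KIF23 had the largest estimate after CENPV, 0.40, with 36.5 ± 8.3 CPM in N421K (n = 9) and 28.0 ± 7.4 CPM in STAT6 WT (SD, n = 27).

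Leaving out replicate 1, 2, or 3 takes away 3 of the 9 N421K libraries, and 3, 12, and 6 genes were then called in N421K. The shares of all genes called in these fits are not given here. The median of the 52 genes was 0.12, 0.13, and 0.12 in these fits, so the median moved less than the calls. Of the 12 genes, 3 were called in all 9 fits that each left out 1 replicate number, CENPV, NUF2, and SMC4. Fits without a number from 4 to 9 kept every N421K library. Within single times, 2, 3, and 2 of 52 genes were called in N421K at 2, 4, and 8 h, beside 7.05%, 4.13%, and 1.98% of all genes, with CENPV at each, SMC4 at 2 h, CDK1 and KIF23 at 4 h, and TPX2 at 8 h.

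A test of the difference among the 3 mutant lines called 1 of 52 genes, PRC1, beside 2.39% of all genes, with 11 of 52 at an unadjusted p under 0.05. PRC1 held 98.3 ± 18.6 CPM in N421K, 79.6 ± 15.0 CPM in D419G, and 76.1 ± 15.1 CPM in D419N (SD, n = 9 each), with 84.6 ± 12.5 CPM in STAT6 WT (SD, n = 27). The N421K libraries held 86.1, 119.8, and 90.3 CPM of PRC1 at 2 h, 118.1, 118.3, and 86.3 CPM at 4 h, and 106.8, 65.7, and 93.1 CPM at 8 h, and thus overlapped with every other line. The adjusted p of PRC1 was 0.0185 by edgeR's quasi-likelihood test, and 0.578 without replicate 1 and 0.0788 without replicate 2. Without replicate 5 or replicate 8, 2 genes were called, PRC1 and CKAP2. For the other 11 genes called in N421K, a difference from the D419 lines was therefore not shown. CKAP2 and NUF2 came nearest, with adjusted p of 0.0536 and 0.0794 by edgeR's quasi-likelihood test.

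The GC measure was on average higher in N421K than in STAT6 WT, so line and measure cannot be fully told apart in a fit that holds both. The 12 called genes had a median GC content of 40.0% and the other 40 genes one of 45.2%. Split at the median GC content of the 52, the GC-poorer 26 genes had 26 positive estimates in N421K with a median of 0.15, and the GC-richer 26 had 21 positive with a median of 0.10. With the GC measure as a covariate, 2 genes were called in N421K, CENPV at 0.56 and HMGB2 at 0.16. The share of all genes called with the covariate is not given here, so the loss of calls cannot be read as particular to the 52. Of the GC-poorer 26, then 18 were positive with a median of 0.04, and of the GC-richer 26, 23 were positive with a median of 0.07. NUF2 stood at 0.22 with an adjusted p of 0.118, KIF23 at 0.16 with 0.494, and SMC4 at 0.10 with 0.184 (edgeR's quasi-likelihood test with the covariate). Without the 3 STAT6 WT libraries lowest in the measure, the same 12 genes were called, and the median of the 52 was 0.10. The measure fell along plate rows A and C. Whether it follows plate position, another step of the libraries' preparation, or the cells was not tested.

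Over all 3 mutants with the covariate, 5 genes were called, 3 higher and 2 lower, in place of 7 higher. HMMR, a spindle protein with 38.2% GC, then stood at −0.27 with an adjusted p of 0.00219 by edgeR's quasi-likelihood test, from −0.04 and 0.82 without the covariate. CENPE, the kinesin that moves chromosomes to the spindle equator, was the other gene called lower. CENPV, UBE2C, and HMGB2 were called higher.

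Over time, the mitotic genes moved about as often as other genes. From 2 to 8 h, with line in the model, 25 of 52 genes (48.1%) were called, 8 higher and 17 lower. That share was close to the 46.4% of all genes called, of which 23.5% were higher and 22.9% lower. The median log2 fold change of the 52 was −0.07 with 20 positive, beside a median of 0.001 over all genes. The split rests on the scaling, since with total counts only, 11 were called higher and 10 lower, and with the GC measure as a covariate 15 were higher and 14 lower. Of the 25, 15 were called in all 9 fits that each left out 1 replicate number. The 10 that lost the call in at least 1 were AURKA, AURKB, BUB1B, BUB3, CCNA2, CKAP2, DLGAP5, NUSAP1, PLK1, and UBE2C. From 2 to 4 h, 9 genes were called (17.3%), 6 higher and 3 lower, beside 22.2% of all genes, 11.8% higher and 10.4% lower. From 4 to 8 h, 9 were called, 1 higher and 8 lower, beside 19% of all genes, 9.68% higher and 9.27% lower. Without replicate 1, 4 genes were called from 4 to 8 h. CCNF, an F-box cyclin, had a median of 81.7 CPM at 4 h and 68.3 CPM at 8 h over 18 libraries each, with a log2 fold change of −0.28 ± 0.07 (SE, adjusted p = 0.000874 by edgeR's quasi-likelihood test). The summed level of the 52 in STAT6 WT was 6023 ± 317, 6288 ± 411, and 6034 ± 164 CPM at 2, 4, and 8 h (SD, n = 9 each), and these values overlapped.

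Genes of mitotic entry moved both ways. CDC25B, the phosphatase that first activates CDK1 complexes, ranged from 104.5 CPM to 163.7 CPM at 2 h and from 138.1 CPM to 212.2 CPM at 8 h, and 18 of 18 libraries at 8 h lay above the 2 h median. Its log2 fold change was 0.39 ± 0.05 (SE, adjusted p = 3.7e-09 by edgeR's quasi-likelihood test). CDK1 ranged from 76.3 CPM to 121.9 CPM at 2 h and from 62.4 CPM to 97.8 CPM at 8 h, and 17 of 18 libraries at 8 h lay below the 2 h median. The log2 fold change of CDK1 was −0.38 ± 0.06 (SE, adjusted p = 1.7e-07 by edgeR's quasi-likelihood test). CCNA2 and CCNB2, cyclins of S phase to mitosis, fell by 0.19 and 0.18, whereas CCNB1 stood at 0.03. The kinases AURKA and PLK1 fell by 0.17 and 0.16, and TPX2 stood at 0.01. AURKA stood at −0.07 without replicate 1 and −0.12 without replicate 9 and was called in neither, and PLK1 was not called without replicate 2, 3, 4, or 9.

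The checkpoint kinase BUB1 rose from a median of 57.8 CPM at 2 h to 79.0 CPM at 8 h, and 17 of 18 libraries at 8 h lay above the 2 h median. BUB1B, its partner in the checkpoint, rose by 0.25, and BUB3, which recruits both to kinetochores, fell by 0.16. MAD2L1 and TTK stood at 0.01 and −0.11 and were not called. CDC20, which the checkpoint restrains, rose by 0.20, while UBE2C and the substrate PTTG1 fell by 0.14 and 0.18. All 3 of these partners were thus called, in opposite directions, beside 46.4% of all genes called from 2 to 8 h. Of the passenger complex, AURKB rose by 0.14, and BIRC5 and INCENP stood at −0.06 and −0.08.

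At the centromere, CENPA, the histone variant that marks it, fell by 0.33 and NUF2 by 0.25. CENPV stood at −0.05 from 2 to 8 h, so that the gene with the largest genotype difference showed none that was called over time. CENPE rose by 0.33 from 2 to 4 h and fell by 0.26 from 4 to 8 h, and stood at 0.07 over the whole span. KIF11 fell by 0.36, and KIF2C, a kinesin that dismantles microtubules, by 0.29. CKAP5, a microtubule polymerase, rose by 0.32 and DLGAP5, which stabilizes kinetochore fibres, by 0.21. CKAP2 and NUSAP1 fell by 0.20 and 0.12.

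Of 8 genes of the midzone and cytokinesis, 3 were called from 2 to 8 h (37.5%), beside 46.4% of all genes. KIF20A was higher and KIF23 and RACGAP1 were lower. KIF14 and KIF20B stood at 0.17 and −0.15 and were not called. KIF20A, which carries the passenger complex to the midzone, ranged from 14.0 CPM to 43.6 CPM at 2 h with a median of 25.4 CPM, and from 11.9 CPM to 50.5 CPM at 8 h with a median of 36.7 CPM. KIF23 ranged from 19.7 CPM to 46.4 CPM at 2 h with a median of 34.1 CPM, and from 13.8 CPM to 35.7 CPM at 8 h with a median of 23.8 CPM. For KIF20A, 15 of 18 libraries at 8 h lay above the 2 h median, and for KIF23, 16 of 18 lay below it. Their log2 fold changes were 0.51 ± 0.10 for KIF20A and −0.56 ± 0.10 for KIF23 (SE), with adjusted p of 1.1e-05 and 2.6e-06 by edgeR's quasi-likelihood test. RACGAP1, which pairs with KIF23 in centralspindlin, fell by 0.23. None of the 6 genes of chromosome structure was called from 2 to 8 h by edgeR's quasi-likelihood test, and 1 had an unadjusted p under 0.05. ARL6IP1 fell by 0.44, from a median of 184.5 CPM to 136.4 CPM, and 18 of 18 libraries at 8 h lay below the 2 h median.

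**Figure D3:**
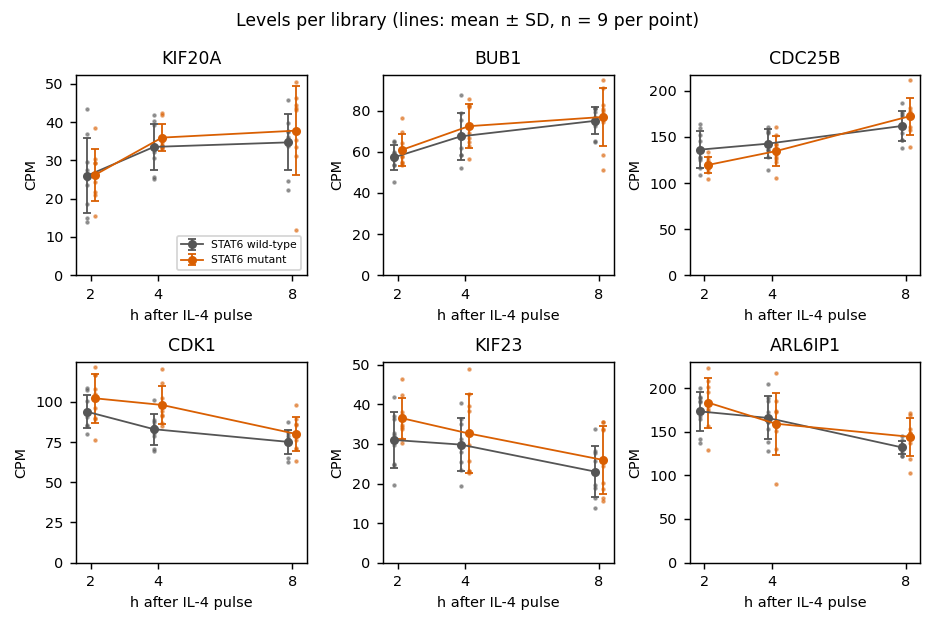
Level in CPM of KIF20A, BUB1, CDC25B, CDK1, KIF23, and ARL6IP1 at 2, 4, and 8 h after the IL-4 pulse in STAT6 WT (grey) and STAT6 MUT (orange), with small points for libraries and lines for mean ± SD (n = 9 per point). KIF20A, BUB1, and CDC25B have higher means at 8 h than at 2 h in both genotypes, and CDK1, KIF23, and ARL6IP1 have lower means in both.

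The 2 genotypes share no library, and each was fitted by itself from 2 to 8 h. STAT6 WT libraries alone gave 14 of 52 genes called (26.9%) and STAT6 MUT libraries alone 15 (28.8%), beside 30.8% and 34.5% of the 9045 genes tested in both. Both fits called 8 of the genes, all with the same sign, which is 57.1% of the calls in STAT6 WT and 53.3% of those in STAT6 MUT, beside 64.7% and 57.9% over all genes. These were ARL6IP1, BUB1, CDC25B, CDK1, CKAP5, KIF20A, KIF23, and KIF2C. Of the 52 genes, 40 had the same sign in both genotypes (76.9%), beside 77.4% of all genes. Both genotypes shared the plate rows of each time. CDC25B stood at 0.28 in STAT6 WT and 0.52 in STAT6 MUT, and its adjusted p for a difference between genotypes over time was 0.481 by edgeR's quasi-likelihood test.

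The promoters of these genes share known cell cycle letters. CCAAT boxes bind NF-Y, and the cell cycle homology region (CHR) is bound by the complexes that repress mitotic genes in resting cells and activate them in G2. RefSeq promoter sequences (GRCh38.p14), 300 bases each, were matched for 44 of the 52 genes. CCAAT, on either strand, was found in 31 of the 44 (70.5%), beside 35.7% of 27305 promoters. The CHR letters were searched as TTTGAA on either strand and as TTTAAA, its own reverse complement, and at least 1 of them was found in 35 of the 44 (79.5%), beside 24.3%. Both a CCAAT and a CHR were found in 27 of the 44 (61.4%), beside 9.49%. The 8 genes higher at 8 h had both in 4 of 8 promoters, the 17 lower genes had both in 8 of 13 matched, and the 12 genes called in N421K had both in 6 of 10 matched. Such matches describe letters and not binding. Shown here are the promoter of CDK1, as an example with the letters, and that of CENPV, the gene with the largest genotype difference, which has none of the 3 motifs in this window, with motif matches in capitals. The CDK1 promoter lies at chr10:60778081-60778380 on the plus strand, where TTTGAA starts at −161, CCAAT at −150, and TTTAAA at −131, counted from the start site. The CENPV promoter lies at chr17:16353420-16353719 on the minus strand and is printed 5′ to 3′ on that strand. By the gene coordinates given above, CENPV begins at 16353656, inside this window, so most of the window lies within the gene. The absence of the letters holds for this window only, and bases further upstream were not searched.
CDK1: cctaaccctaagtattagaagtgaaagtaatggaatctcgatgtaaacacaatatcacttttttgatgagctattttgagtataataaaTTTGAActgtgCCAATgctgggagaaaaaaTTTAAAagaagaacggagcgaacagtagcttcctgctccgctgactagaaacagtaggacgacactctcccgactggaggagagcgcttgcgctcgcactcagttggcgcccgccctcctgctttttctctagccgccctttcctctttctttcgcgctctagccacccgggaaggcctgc
CENPV: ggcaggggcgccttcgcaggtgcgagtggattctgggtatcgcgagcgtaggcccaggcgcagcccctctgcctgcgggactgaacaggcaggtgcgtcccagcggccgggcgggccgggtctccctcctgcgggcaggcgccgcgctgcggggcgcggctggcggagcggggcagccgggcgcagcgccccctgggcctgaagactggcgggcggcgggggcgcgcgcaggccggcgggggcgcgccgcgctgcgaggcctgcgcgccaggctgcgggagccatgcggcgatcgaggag

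Genes of neighbouring processes were set beside the 52. Over all genes, 13.4% were called across genotypes, 13.7% in N421K, and 46.4% from 2 to 8 h, and these shares stand beside each list here. Of 71 other mitosis genes tested, 6 were called across genotypes (8.45%), 4 higher and 2 lower. In N421K 7 were called (9.86%), and from 2 to 8 h 31 (43.7%), 11 higher and 20 lower. ASPM, a spindle pole protein, MKI67, a coat protein of mitotic chromosomes, and CENPC, an inner kinetochore protein, had the smallest p across genotypes, with log2 fold changes of 0.30, 0.23, and 0.23. The 2 called lower, named after their values were seen, were TUBB4B, a beta tubulin, and the condensin II subunit NCAPG2, at −0.13 and −0.15. Of 10 cohesin genes, 2 were called higher across genotypes (20%) and 3 in N421K (30%). RAD21, the cohesin subunit that separase cuts, was called in each mutant line, at 0.22 in D419G, 0.27 in D419N, and 0.40 in N421K. Of 13 subunits of the anaphase-promoting complex tested, 0 were called across genotypes by edgeR's quasi-likelihood test, with 1 at an unadjusted p under 0.05. From 2 to 8 h, 4 were called (30.8%), 2 in each direction. Of 34 genes of G1/S and replication, 3 were called across genotypes (8.82%), MCM6 higher and MCM7 and POLE lower. From 2 to 8 h, 17 were called (50%), 8 higher and 9 lower. E2F1 and PCNA fell by 0.54 and 0.31 from 2 to 8 h, and MCM3 rose by 0.22.

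Signs of cell state moved with time as well. Of 11 heat shock genes tested, 9 rose from 2 to 8 h, and their summed level in STAT6 WT was 5693 ± 289, 6980 ± 272, and 8805 ± 304 CPM at 2, 4, and 8 h (SD, n = 9 each). Of 10 mitochondrially encoded genes, 5 fell from 2 to 8 h and 0 were called across genotypes by edgeR's quasi-likelihood test, with 0 at an unadjusted p under 0.05. Of the 8 B cell markers, 7 were called from 2 to 8 h, 6 higher and 1 lower, and 5 across genotypes, 2 higher and 3 lower. The only T cell marker tested, TRAC, was not called in either. The 2 monocyte markers found were too low to test. Over all genes, 46.4% were called from 2 to 8 h, 23.5% higher and 22.9% lower, and 13.4% across genotypes. The part of these changes in the results for the 52 genes was not tested.

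The measured levels of the mitotic genes had a low median correlation once line and time were taken out. Counting error lowers such correlations, and its part was not tested. Over 1176 pairs of the 49 members with enough counts, the median correlation of log2 CPM across the 54 libraries was 0.075, beside 0.0 for pairs of all genes. The pairs share library, depth, and base composition. The highest values were between GC-poor genes, 0.777 for KIF20B and SMC4, 0.751 for CENPE and SMC4, and 0.719 for CENPF and SMC4. CENPV, which is GC-richer, had −0.541 with SMC4. Some counts are less certain than others. Processed copies of UBE2C, ARL6IP1, and CDC20 held 1975, 1260, and 270 molecules of their own, and reads of such copies cannot be told apart where they are near-identical. TRIM59 overlaps SMC4 on the other strand and stood at −0.12 in N421K, and PRC1-AS1 held 17 molecules in all. CDC23 overlaps the 3′ end of KIF20A on the other strand, held 1445 molecules, and stood at −0.20 from 2 to 8 h with an adjusted p of 0.0717 by edgeR's quasi-likelihood test.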

How the data were processed

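RNA of OCI-Ly1 cells was counted in 54 libraries by prime-seq, a bulk protocol that reads the 3′ end of mRNA. Every molecule is tagged so that PCR copies count once (UMI). Raw UMI counts per Ensembl gene and library, made by the authors with the Drop-seq pipeline, were deposited unfiltered and unpooled. The submitters' processing notes name hg38. Aligner, annotation, and strand setting were each not given in the sources used here. A symbol was found for 30959 of 31835 identifiers, and 0 columns of values were unused.

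Counts were tested with edgeR 4.0.16 in R 4.3.3 (TMM, filterByExpr, quasi-likelihood test, Benjamini-Hochberg adjustment over all genes tested, called at an adjusted p under 0.05). Genotypes were compared over all times with time in the model and at each time alone, lines and times in a model of line and time, and genotype by time in a model of the 6 groups. Log2 fold changes are edgeR's. CPM are counts over TMM-scaled library sizes. Groups came from the sample labels. Alternatives covered scaling, count filter, DESeq2 1.42.0, limma-voom (limma 3.58.1), plate row, replicate block, culture, single times, single genotypes, and left-out libraries, replicates, or lines. A library GC measure as a covariate and leaving out the 3 libraries lowest in it were added after seeing the data. Model steps were tested on simulated counts. Figures were drawn with matplotlib 3.10.9 in Python 3.11.15.

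The members, and hand-written lists of other mitosis, anaphase-promoting complex, cohesin, G1/S, heat shock, mitochondrial, and cell type marker genes, were chosen with earlier results of these data known. Singled out for their values were the 4 members with the smallest p among those called in each comparison, the member with the largest change across genotypes and from 2 to 8 h, and TOP2A, CCNB1, CDK1, AURKA, PLK1, CDC20, MAD2L1, and BIRC5. In the other lists, genes were named from among the 3 smallest p. Genes named beyond this rule were chosen after their values were seen. Counting error is largest in the shallowest library, which held 161518 UMIs.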

Additional observations from a re-analysis of the deposited data

Results flagged for a closer look

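In 11 of 144 groups of 9 libraries examined, over 23 members and their summed level, the highest or lowest library stood far from the other 8, and chance gives this in about 1 in 20 groups. In STAT6 WT replicate 6 at 2 h, CENPE was low at 56.0 CPM and CENPV high at 96.5 CPM. CENPV was also high in STAT6 WT replicate 3 at 4 h, at 105.6 CPM. KIF11 was high in D419N replicate 2 at 2 h, at 61.0 CPM. In D419N replicate 3 at 8 h, the shallowest library, KIF11 was low at 5.94 CPM and KIF20A low at 11.9 CPM. KIF20B was low in STAT6 WT replicate 4 at 8 h, at 43.6 CPM. MAD2L1 was high in STAT6 WT replicate 3 at 2 h, at 102.1 CPM, and low in STAT6 WT replicate 8 at 4 h, at 39.2 CPM. TOP2A was low in D419G replicate 3 at 4 h, at 254.2 CPM. UBE2C was low in D419N replicate 3 at 2 h, at 142.0 CPM. PRC1 differed among the 3 mutant lines, with an adjusted p of 0.0185 by edgeR's quasi-likelihood test.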

How the results depend on the processing

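Of 288 counts of called members under alternatives, 239 stayed within 1.5 times the count reported, and of 1093 values of single members, 964 kept their direction and side of the threshold, 106 lost the call, 4 gained it, and 19 changed sign. CENPV was called across genotypes under 25 of 25 alternatives, at 0.43 to 0.53. Single times held fewer libraries and gave fewer calls, with 0 in D419G and 2 in N421K at 2 h, 0 in D419G, 0 in D419N, and 3 in N421K at 4 h, 0, 0, and 2 at 8 h, and 0 among lines at each time. With the GC covariate, 2 were called in D419G, 2 in N421K, 0 among lines, 1 at 2 h, and 2 at 8 h. Mutant libraries alone gave 3 from 2 to 4 h, 15 from 2 to 8 h, and 3 from 4 to 8 h, and STAT6 WT libraries alone 3, 14, and 2. Among lines, 2 were called without a count filter, 2 without the 8 shallow libraries, and 3 without the 3 libraries lowest in the GC measure, which left 2 called at 2 h. Without the D419G line 2 were called at 8 h, without D419N 2 at 4 h, and without N421K 2 at 2 h and 2 over all times. Without 1 replicate number at a time, the counts were 3 to 7 over all times, 2 to 6 at 2 h, 1 at 4 h, 1 to 2 at 8 h, 0 for the interaction, 0 to 2 in D419G, 1 in D419N, 3 to 13 in N421K, 0 to 2 among lines, 6 to 9 from 2 to 4 h, 4 to 10 from 4 to 8 h, and 20 to 25 from 2 to 8 h. The cause of these shifts was not tested.

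Replicate numbers did not pair the libraries. Deviations of same-numbered libraries had a median correlation of −0.009 across times and 0.009 across lines, and 20 of 108 correlated best with their own number. With the replicate block, 4 members were called over all times, 1 at 2 h, 0 at 4 h, 0 at 8 h, 2 in D419G, 10 in N421K, and 2 among lines. For time, the block was line and number together, and 9 were called from 2 to 4 h and 8 from 4 to 8 h. From 2 to 8 h it gave 20, with 8 higher and 12 lower. As numbers 4 to 9 exist only in STAT6 WT, the genotype comparison in these fits rests on STAT6 WT replicates 1, 2, and 3. The signs that changed belonged to log2 fold changes near 0. From 2 to 8 h, MAD2L1 stood at −0.00729 without the shallow libraries, −0.0217 without D419G, −0.0043 with the block, −0.0510 in STAT6 WT alone, −0.0290 with the GC covariate, and −0.0290 to 0.0423 without 1 replicate number, and BIRC5 at 0.0137 in STAT6 MUT alone. Over all times, PLK1 ranged from −0.00432 to 0.131, BIRC5 from −0.0190 to 0.0310, and CCNB1 from −0.0169 to 0.0550 without 1 replicate number. Without N421K, BIRC5 stood at −0.00988, CCNB1 at −0.00755, and TOP2A at −0.00653, and BIRC5 at −0.00602 with the block. With the GC covariate, CCNB1 stood at −0.0212, TOP2A at −0.0289, and CDC20 at 0.0128.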
